A study of Sus scrofa with 9 samples.

Results

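The 10 genes described here sense viral RNA or answer to interferon. They are the RNA helicase sensors DDX58, DHX58 and IFIH1, the interferon regulatory factors IRF1 and IRF9, the guanylate-binding protein genes GBP1 and GBP2, the antigen-processing genes PSMB8 and TAP1, and TRIM21. They were chosen by name, and a gene was found in the table through its RefSeq accession. They occupy 12 of 4882 listed transcript positions and are 10 of 3890 named genes. The position with the longest annotated span stood for a gene, and the first listed one where PSMB8 had a pair of equal span. All 10 averaged 0.5 RPKM or more across the libraries, the limit for testing, and DDX58 was closest to it with an average of 0.54 RPKM.

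Nascent RNA was read by GRO-seq, in which nuclei extend the transcripts they were making with a labelled nucleotide that is then captured. Myocardium came from 3 female farm pigs 24 hours after an embolization coil had blocked the distal left anterior descending coronary artery. Each pig gave an ischemic, a border zone and a healthy sample, so 9 libraries form 3 groups of 3. The healthy samples come from the same occluded hearts and not from unoperated animals. Tissue was digested with collagenase before nuclei were taken, so the values depend on which cells and nuclei came through. RPKM here counts reads per kilobase of annotated span, introns included, and is scaled to the reads of the library, which allows levels of different genes to be set side by side.

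Cytosolic RNA from viruses, or displaced RNA of the cell itself, is recognised by the helicases RIG-I (DDX58) and MDA5 (IFIH1), while LGP2 (DHX58) lacks the signalling domain and tunes both. RIG-I and MDA5 act through the mitochondrial adaptor MAVS to induce type I interferon, whose receptor activates a transcription factor complex that includes IRF9. Interferon-gamma induces IRF1 and raises the guanylate-binding proteins, the immunoproteasome and the peptide transporter TAP. In infarcted heart a type I interferon response is known from macrophages that take up debris of dead cells.

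Library totals were 883656 to 2134087 reads in ischemic, 2187977 to 7005976 in border zone and 2730083 to 6531658 in healthy samples. The 10 genes held 3 to 289 reads per library, so the ischemic values carry the widest counting error. Heart muscle markers were present in all libraries, with summed RPKM of 60.2 to 204 in ischemic, 151 to 258 in border zone and 322 to 544 in healthy samples over 9 genes. Over the 2384 positions tested, the median log2 fold change was 0.21 for ischemic against healthy and 0.22 for border zone against healthy, and 0.00 and -0.04 with the libraries scaled to 1 median. Of 659 positions called in ischemic against healthy myocardium 442 were higher and 217 lower, against 337 higher and 295 lower with that scaling and 249 higher and 251 lower with quantile normalization.

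IRF1 and DHX58 were the only 2 of the 10 genes that rose in ischemic against healthy myocardium, and none fell. That is 20% of the genes, against 18.5% of all positions tested that were called higher, 9.1% called lower and 27.6% called in either direction, at an adjusted p under 0.05 (limma, Benjamini-Hochberg over all positions). The share is near the background and is no feature of the group. At an unadjusted p under 0.05 the count was 3 of 10, against 27.1% of positions called higher that way. The 10 genes had a median log2 fold change of 0.80, beside 0.21 over all positions. In 8 of the 10, all but GBP1 and GBP2, the ischemic sample was above the healthy sample of the same pig in 3 of 3 pigs, which held for 37.3% of positions. All ischemic samples were above all healthy samples for DHX58, IRF1 and TRIM21, 3 of 10 genes, against 28.4% of positions. In these bulk samples, more cells of a type and more nascent RNA per cell cannot be told apart.

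**Figure D1:**
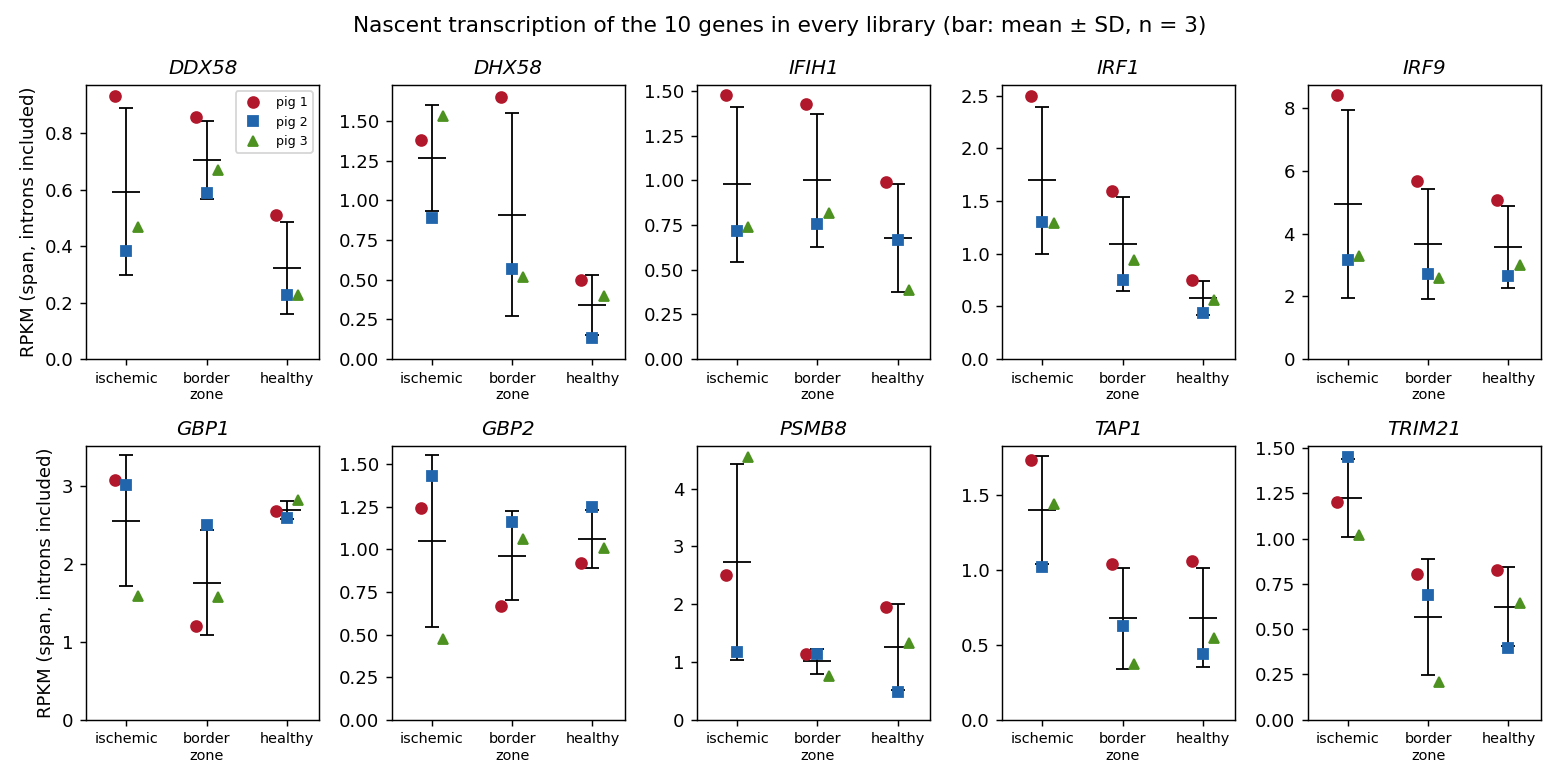
RPKM of each gene in every library, by zone, with the symbol marking the pig and the bar the mean ± SD (n = 3). IRF1, DHX58 and TRIM21 have all ischemic points above all healthy points, while the ischemic points of GBP1 and GBP2 overlap the healthy ones.

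IRF1, a transcription factor induced by interferon-gamma and by NF-kB, is listed on chromosome 2 from 140229799 to 140252658 of the susScr3 build, on the minus strand, with 2062 bp of exons in a span of 22859 bp. It had 2.50, 1.30 and 1.29 RPKM in the ischemic samples of pigs 1 to 3, 1.60, 0.749 and 0.94 RPKM in the border zone samples, and 0.753, 0.434 and 0.563 RPKM in the healthy samples. Every ischemic sample was above every healthy sample, and in each pig the ischemic sample was highest and the healthy sample lowest. Means were 1.70 ± 0.696 RPKM in ischemic, 1.10 ± 0.447 in border zone and 0.583 ± 0.16 in healthy myocardium (SD, n = 3 each). The fitted difference between ischemic and healthy myocardium was 2.56-fold (log2 fold change 1.36 ± 0.36 SE, adjusted p = 0.027, limma), and 3.32-, 3.00- and 2.29-fold within pigs 1 to 3. The call was lost on leaving out the healthy library of pig 2 (adjusted p = 0.0894) or pig 3 (0.0718), or the ischemic library of pig 1 (0.0767). The border zone against healthy myocardium gave 0.77 ± 0.36 (adjusted p = 0.264) and did not pass.

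IRF9, the DNA-binding subunit of the interferon-activated STAT complex (chromosome 7 from 80405098 to 80410938), had the highest mean RPKM of the 10 genes in ischemic as in healthy samples, though PSMB8 was above it in the ischemic sample of pig 3. It had 8.42, 3.15 and 3.29 RPKM in ischemic, 5.69, 2.71 and 2.58 in border zone and 5.08, 2.65 and 2.99 in healthy samples of pigs 1 to 3. The zones overlapped and pig 1 was highest in each of them. The log2 fold change was 0.37 ± 0.48 in ischemic against healthy myocardium (adjusted p = 0.604, limma), and -0.09 when the ischemic library of pig 1 was left out. In border zone against healthy myocardium it was 0.00 ± 0.48.

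The RNA sensors DDX58 and DHX58 had the lowest mean RPKM of the 10 genes in healthy samples, with DDX58 at 0.322 ± 0.164 RPKM and DHX58 at 0.342 ± 0.189 RPKM, which do not differ beyond their spread. DHX58, on chromosome 12 from 20937912 to 20946764, had 1.38, 0.891 and 1.53 RPKM in ischemic samples, 1.65, 0.564 and 0.516 in border zone samples and 0.497, 0.132 and 0.398 in healthy samples of pigs 1 to 3. All ischemic and all border zone samples were above all healthy samples. The ischemic values rest on 26, 9 and 12 reads and the healthy values on 12, 4 and 23 reads. DHX58 rose 3.26-fold in ischemic against healthy myocardium (log2 fold change 1.71 ± 0.51, adjusted p = 0.0386, limma), the largest fold of the 10 genes. The call was lost on leaving out any of 5 libraries, with an adjusted p of 0.0505 for the border zone of pig 2, 0.0706 to 0.115 for the healthy tissue of pigs 2 and 3, and 0.098 to 0.099 for the ischemic tissue of pigs 1 and 3. It was lost with no limit on low values (0.0583) and with quantile normalization (0.105) as well. The border zone gave 1.13 ± 0.51 against healthy myocardium (adjusted p = 0.245).

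DDX58, the sensor RIG-I (chromosome 10 from 38145289 to 38189016), had 0.932, 0.381 and 0.466 RPKM in ischemic samples, 0.857, 0.588 and 0.669 in border zone samples and 0.511, 0.227 and 0.228 in healthy samples. All border zone samples were above all healthy samples, while ischemic and healthy samples overlapped. Its log2 fold change was 0.98 ± 0.42 in border zone against healthy myocardium (unadjusted p = 0.0477, adjusted p = 0.226, limma) and 0.70 ± 0.42 in ischemic against healthy myocardium (adjusted p = 0.253). With limma-voom on the reads the border zone call passed, at 1.28 (adjusted p = 0.0284), in a setting that called 296 positions in place of 143. Ischemic against healthy myocardium gave 1.13 by limma-voom (adjusted p = 0.0607). Within pigs 1 to 3 the border zone was 1.68-, 2.59- and 2.94-fold above the healthy sample. The ischemic sample was 1.82-, 1.68- and 2.05-fold above it. Ischemic against border zone gave -0.28 ± 0.42 (adjusted p = 0.8, limma) and did not pass.

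IFIH1, the sensor MDA5 (chromosome 15 from 76423089 to 76476753), had 1.48, 0.719 and 0.738 RPKM in ischemic, 1.43, 0.758 and 0.818 in border zone and 0.99, 0.664 and 0.385 in healthy samples. The zones overlapped, and neither zone passed against healthy myocardium, at 0.47 ± 0.41 for ischemic and 0.52 ± 0.41 for border zone (adjusted p = 0.424 and 0.52, limma).

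The guanylate-binding proteins are interferon-gamma-induced GTPases that attack vacuoles of intracellular microbes. GBP1 and GBP2 neighbour each other on opposite strands of chromosome 4, from 139651545 to 139667272 and from 139612353 to 139633862. GBP1 had 3.07, 3.01 and 1.58 RPKM in ischemic, 1.20, 2.50 and 1.57 in border zone and 2.68, 2.58 and 2.81 in healthy samples of pigs 1 to 3. The healthy samples had an SD of only 0.117 RPKM around their mean of 2.69 RPKM, and all border zone samples were below them. In pig 2 the gap was slight, with 95% counting ranges of 2.21 to 2.81 RPKM in border zone and 2.17 to 3.05 RPKM in healthy tissue. The share of all positions that lay lower in this way was not counted. GBP1 did not pass in the border zone against healthy myocardium (-0.65 ± 0.33, unadjusted p = 0.0829, adjusted p = 0.302, limma) or in ischemic against healthy myocardium (-0.13 ± 0.33, adjusted p = 0.8). GBP2 had 1.24, 1.43 and 0.474 RPKM in ischemic, 0.668, 1.16 and 1.06 in border zone and 0.92, 1.25 and 1.01 in healthy samples, with log2 fold changes of -0.13 ± 0.39 and -0.15 ± 0.39 against healthy myocardium. Both genes were lowest among the ischemic samples in pig 3, and without that library their ischemic log2 fold changes were 0.17 for GBP1 and 0.31 for GBP2.

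PSMB8, an inducible catalytic subunit of the immunoproteasome, and TAP1, a subunit of the transporter that loads peptides on MHC class I, adjoin each other on chromosome 7 and are each listed at 2 places there. PSMB8 is at 29269962 to 29272956 and at 29425070 to 29428064, and TAP1 at 29429778 to 29438411 and at 29274670 to 29283290. The sources used here do not say how reads that match both places were assigned, so the values of these genes are uncertain. At its first place PSMB8 had 2.50, 1.17 and 4.54 RPKM in ischemic, 1.13, 1.14 and 0.763 in border zone and 1.96, 0.487 and 1.33 in healthy samples. Every ischemic sample was above every border zone sample, while ischemic and healthy samples overlapped. TAP1 had 1.74, 1.02 and 1.44 RPKM in ischemic, 1.04, 0.628 and 0.371 in border zone and 1.06, 0.44 and 0.55 in healthy samples.

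The log2 fold change of PSMB8 in ischemic against healthy myocardium was 1.05 ± 0.56 (adjusted p = 0.201, limma), and 1.56 ± 0.59 at its other place (adjusted p = 0.0803). That of TAP1 was 0.99 ± 0.41 (adjusted p = 0.111), and 1.06 ± 0.37 at its other place (adjusted p = 0.062). With pig as a block TAP1 passed (adjusted p = 0.042). With the mean over both places, a setting chosen after seeing the data, the adjusted p was 0.118 for PSMB8 and 0.0801 for TAP1. In border zone against healthy myocardium PSMB8 had -0.13 ± 0.56 and TAP1 -0.02 ± 0.41, and these values became 0.09 and 0.21 with the mean over both places.

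TRIM21, a cytosolic receptor for antibody and a ubiquitin ligase (chromosome 9 from 6537216 to 6543854), had 1.20, 1.45 and 1.02 RPKM in ischemic, 0.806, 0.688 and 0.207 in border zone and 0.828, 0.396 and 0.646 in healthy samples. The ischemic samples were above all samples of both other zones. The log2 fold change was 0.91 ± 0.44 against healthy myocardium (adjusted p = 0.16, limma) and 1.12 ± 0.44 against the border zone (unadjusted p = 0.033, adjusted p = 0.275). The ischemic values rest on 17, 11 and 6 reads.

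**Figure D2:**
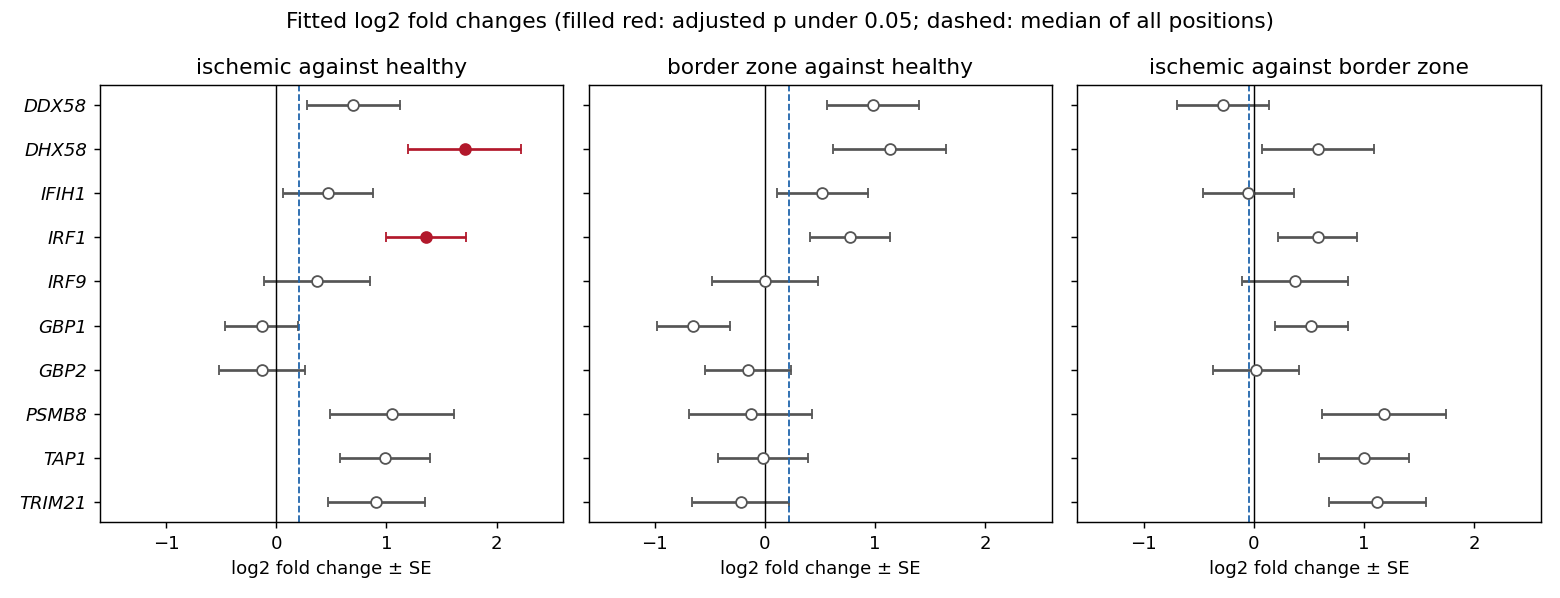
Fitted log2 fold change ± SE of each gene in 3 comparisons, with filled red points at an adjusted p under 0.05 (limma) and a dashed line at the median of all positions tested. Filled points are DHX58 (1.71) and IRF1 (1.36) in ischemic against healthy myocardium.

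Between border zone and healthy myocardium 0 of the 10 genes passed, against 6% of all positions and 5.79% called higher (limma). At an unadjusted p under 0.05 the count was 1 of 10, against 17.8% of positions called higher that way, and by limma-voom 1 of 10, DDX58 in each case. Their median log2 fold change was -0.01, beside 0.22 over all positions. The 3 sensors and IRF1 were above the healthy sample in the border zone of 3 of 3 pigs, and so were 37.1% of all positions. All border zone samples were above all healthy samples for DDX58 and DHX58, which held for 25.7% of positions. Between ischemic myocardium and border zone 0 of 10 passed, against 1.13% of positions, of which 0.168% were called higher and 0.965% lower (limma). At an unadjusted p under 0.05 the count was 2 of 10 (TAP1 and TRIM21), against 6.42% of positions called higher that way, and by limma-voom it was 0. In 6 of 10 genes the ischemic sample was above the border zone sample in 3 of 3 pigs, against 20.7% of positions. The ischemic samples of PSMB8 and TRIM21 lay above all border zone samples, as did 8.56% of positions. The median there was 0.55, beside -0.04 over all positions. Each pair of the 3 comparisons shares a zone's samples, so their values are not independent.

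The pigs differed along with the zones. Pig 1 had the highest sample of all 3 zones for 5 of the 10 genes (DDX58, IFIH1, IRF1, IRF9 and TAP1), against 12.5% of all positions, while pig 2 did for GBP2 and pig 3 for none. With the libraries brought to 1 common median, a setting chosen after seeing the data, pig 1 kept 4 of the 10 (all of these but TAP1), against 6.88% of positions. IRF9 in pig 1 was 8.42, 5.69 and 5.08 RPKM in ischemic, border zone and healthy samples, and no sample of another pig passed 3.29 RPKM. Pig 1 was also highest in all zones for 3 of 8 measured antiviral effector genes. Pig 1 was highest in every zone for the summed endothelial markers, with 32.2, 18 and 8.84 RPKM in ischemic, border zone and healthy samples. So it was for the neutrophil markers, with 30.2, 10.8 and 0.323 RPKM, the healthy value being that of TREM1 alone. It was not for the macrophage and monocyte, lymphocyte, dendritic cell, heart muscle or fibroblast markers. For the macrophage and monocyte markers pig 1 was lowest in ischemic samples, with 21.7 RPKM beside 22.6 and 24.2 RPKM. The part of these cells in this order of the pigs was not tested. GBP1 and GBP2 did not follow this order, and pig 1 had the lowest border zone sample of both. With 3 pigs, and a pattern seen in these data, this is a description and was not tested.

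**Figure D3:**
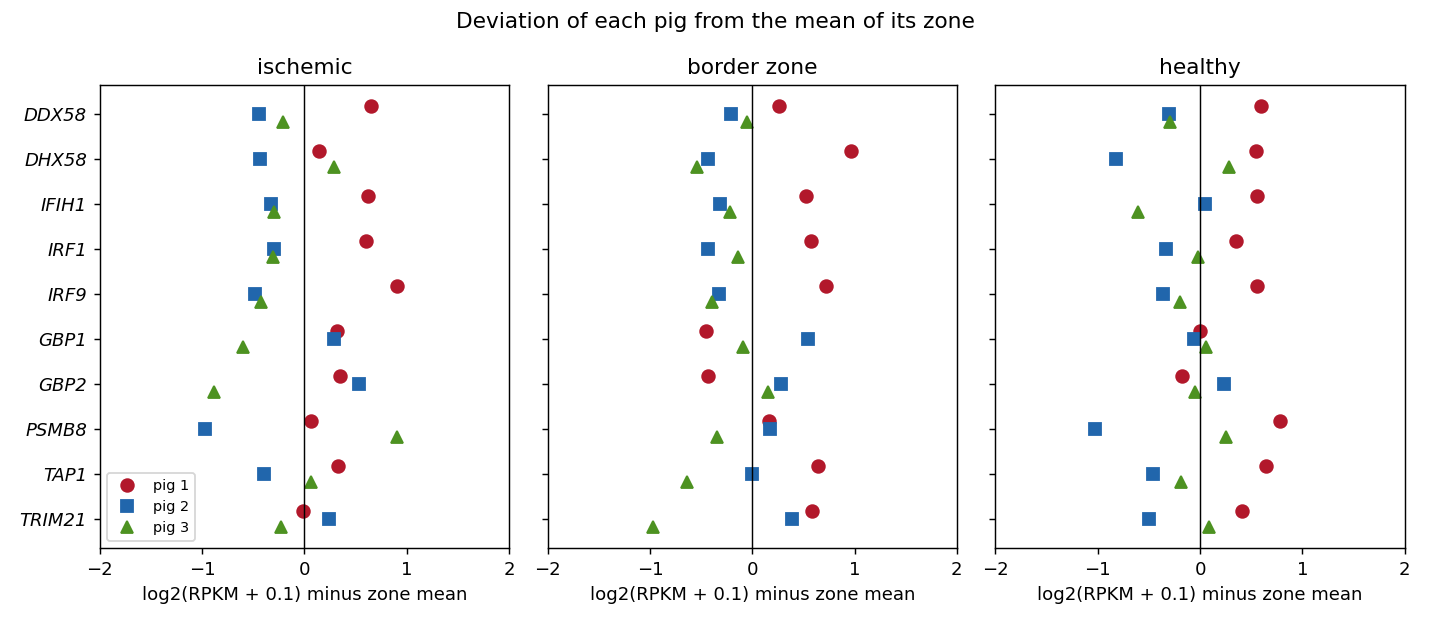
Deviation of each pig from the mean of its zone, in log2(RPKM + 0.1), for each gene, with the symbol marking the pig. Pig 1 lies right of the other pigs in all 3 zones for DDX58, IFIH1, IRF1, IRF9 and TAP1.

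The pathway around the 10 genes was followed in 125 further genes, of which 76 are in the table and 42 could be tested. Of these, 16 rose and 1 fell in ischemic against healthy myocardium, beside 18.5% of all positions called higher and 9.1% called lower. The split was 12 higher and 2 lower with the libraries scaled to 1 median, and 9 higher and 2 lower with quantile normalization. The fall was that of MAVS, the adaptor that RIG-I and MDA5 need. MAVS, on chromosome 17 from 36196578 to 36206235, had 1.12, 0.726 and 1.41 RPKM in ischemic, 4.08, 9.31 and 4.07 in border zone and 6.49, 8.86 and 8.42 in healthy samples. All ischemic samples were below all others, and the share of all positions for which this held was not counted. MAVS fell with a log2 fold change of -2.79 ± 0.38 against healthy myocardium (adjusted p = 0.00219, limma), a call kept whichever library was left out. It was called against the border zone as well (-2.25, adjusted p = 0.0448), but that call was lost whichever of the 9 libraries was left out (adjusted p of 0.0554 to 0.0906) and with pig as a block (0.0617). Of the sensors and their adaptor, then, DHX58 was higher and MAVS lower in ischemic myocardium, and DDX58 and IFIH1 did not pass. Heart muscle markers also fell there, 6 of 9 of them, beside 9.1% of all positions called lower. The part of heart muscle in the fall of MAVS was not tested.

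Of the interferon genes IFNG, IFNB1, IFNE and IFNK, none reached the limit for testing. IFNG, which encodes interferon-gamma, held 1, 0 and 0 reads in ischemic, 16, 13 and 5 in border zone and 7, 0 and 6 in healthy samples of pigs 1 to 3. IFNB1, IFNE and IFNK are listed at 0 in every library. The IFNG-induced chemokine genes CXCL9 and CXCL11 are listed at 0 in every ischemic and border zone sample, and CXCL10 held 0, 2 and 0 reads in ischemic, 6, 4 and 0 in border zone and 3, 5 and 11 in healthy samples. Its mean RPKM was 0.0112, 0.0144 and 0.027 in that order. CXCL10 is listed over 52308 bp with 1130 bp of exons, so these few reads may come from outside the gene. IRF7, the factor of late interferon induction, held 8, 0 and 0 reads in ischemic, 13, 3 and 7 in border zone and 1, 2 and 0 in healthy samples. IFNAR1, IFNAR2, TBK1, SOCS3, PSMB10 and ISG15 are at 0 in all libraries, but lie on unplaced scaffolds, where 0 of 548 listed positions hold a read, so these zeros say nothing about transcription.

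Among receptors and kinases, the interferon-gamma receptor gene IFNGR1 (0.93 ± 0.30) and JAK1, JAK2, TYK2 and STAT3 (0.64 to 0.80) rose in ischemic against healthy myocardium (adjusted p of 0.0149 to 0.0484, limma). With the libraries scaled to 1 median the call held for STAT3 but was lost for IFNGR1, JAK1, JAK2 and TYK2 (adjusted p of 0.0692 to 0.13). Of the 9 fits with 1 library left out, the call held in 1 for IFNGR1, 3 each for JAK1 and JAK2, 4 for TYK2 and 8 for STAT3, with adjusted p up to 0.15. JAK2 is listed at other places too, where it had -3.76 ± 1.39 (adjusted p = 0.0794) and -0.28 ± 1.25 and did not pass. By the numbering of its entry JAK1 is probably listed at other places as well, whose values are not given here. With the position of the highest mean RPKM standing for each gene, 15 pathway genes were called in place of 17, 14 of them higher and 1 lower. SOCS1, an inhibitor of JAK signalling, had -2.09 ± 0.73 (adjusted p = 0.0648, limma) on few reads, with 1, 0 and 0 in ischemic, 12, 10 and 3 in border zone and 2, 2 and 3 in healthy samples. Its value was -4.20 with a pseudocount of 0.01 RPKM, -0.56 with 1 RPKM and -0.30 with limma-voom on the reads (adjusted p = 0.822), while with pig as a block, scaling to 1 median or quantile normalization it passed (adjusted p of 0.0232 to 0.0354). In RNA and DNA sensing, ZC3HAV1, an antiviral protein that binds viral RNA, rose (1.06 ± 0.25), and IRF3, the factor activated downstream of MAVS, had -0.29 ± 0.22 (adjusted p = 0.365). IRF8, a factor of monocytes and dendritic cells, rose in both zones against healthy myocardium, with 3.03 ± 0.57 in ischemic (adjusted p = 0.00715) and 3.53 in border zone samples (adjusted p = 0.0119). The border zone call was lost on leaving out that zone's library of pig 1 (0.0668) or pig 3 (0.0644).

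Of 16 tested antigen presentation genes 5 rose in ischemic against healthy myocardium and 0 fell, beside 18.5% of all positions called higher, and their median log2 fold change was 1.15, beside 0.21 over all positions. TAP2, the partner of TAP1, rose (2.08 ± 0.39, adjusted p = 0.00715, limma, and 0.0851 with quantile normalization), with 1.16, 1.16 and 1.80 RPKM in ischemic, 0.872, 0.417 and 0.849 in border zone and 0.421, 0.155 and 0.203 in healthy samples. The other 4 were the chaperone gene CALR (1.98), the class I gene SLA-2 (1.49) and the class II genes SLA-DQA1 (1.56) and SLA-DQB1 (1.05). SLA genes are similar in sequence, and their reads may be split among them. The listed span of SLA-2 is 67616 bp with 1096 bp of exons, beside a span of 3708 bp for SLA-3. The value of SLA-2 may therefore hold reads from outside the gene. PSMB9, the neighbour of TAP1, was under the limit for testing, with 4, 3 and 0 reads in ischemic, 14, 33 and 7 in border zone and 8, 4 and 11 in healthy samples. TAP2 and PSMB9 lie beside listed places of PSMB8 and TAP1 on chromosome 7. By the numbering of their entries TAP2, PSMB9 and SLA-2 are probably listed at another place too, whose values are not given here. The assignment of their reads may be uncertain as well. The constitutive proteasome subunits PSMB6 and PSMB7 had -0.02 ± 0.56 and 0.13 ± 0.20, and did not pass. Of 3 other interferon-gamma targets ICAM1 (2.96 ± 0.51) and SOD2 (1.39 ± 0.31) rose, both also induced by NF-kB, and of 8 antiviral effectors MX1 and MX2 did, 2 of 8 being near the background of 18.5%.

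**Figure D4:**
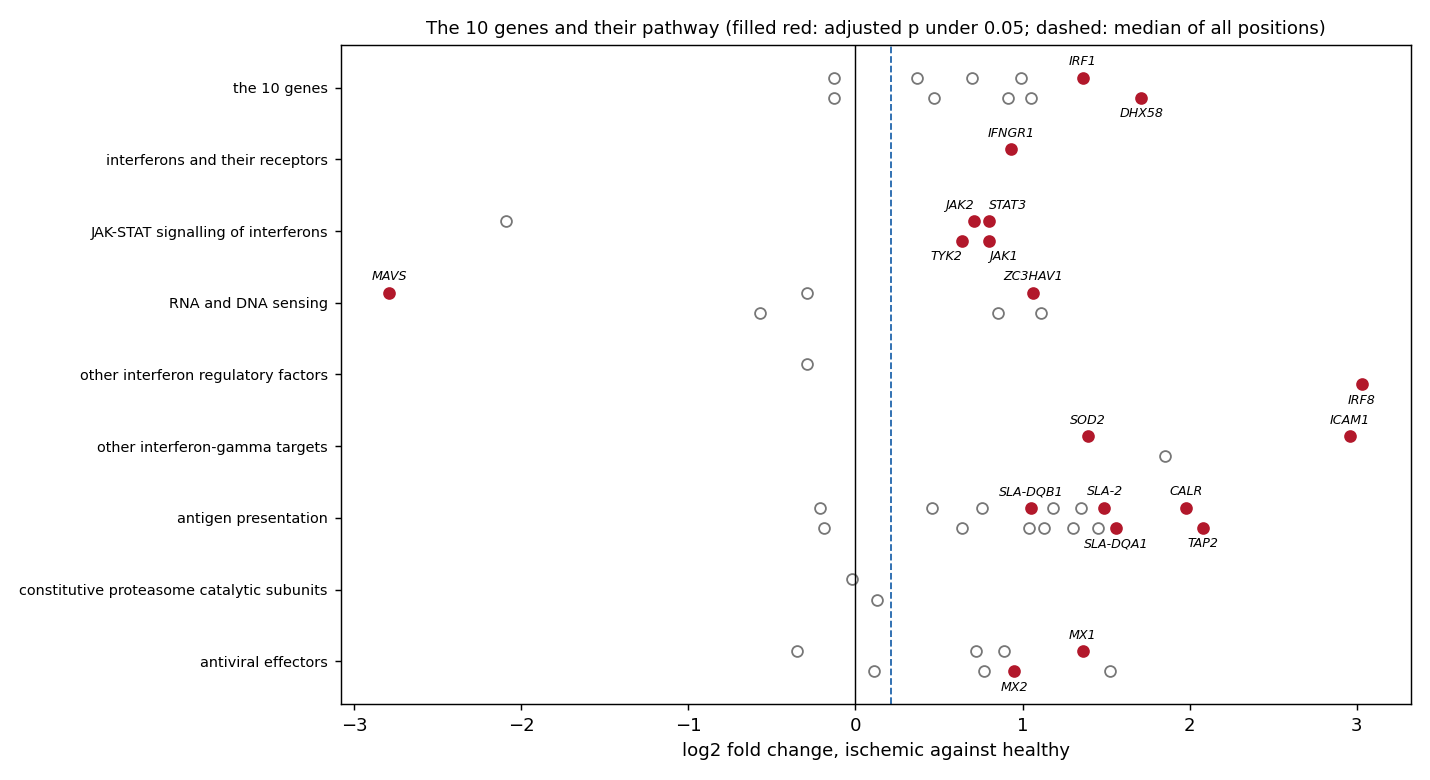
Log2 fold change in ischemic against healthy myocardium of the 10 genes and of the tested genes of each pathway list, with filled red points and names at an adjusted p under 0.05 (limma) and a dashed line at the median of all positions. MAVS (-2.79) stands left of all others, and IRF8 (3.03) and ICAM1 (2.96) stand right of all others.

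Of these 17 pathway calls, 11 were lost on leaving out the healthy library of pig 2, 9 on leaving out that of pig 3, and 10 on leaving out the ischemic library of pig 1 (adjusted p of 0.0501 to 0.15, limma). MAVS, IRF8, TAP2, ICAM1 and CALR were kept whichever library was left out. In border zone against healthy myocardium 4 of the 42 genes rose (IRF8, ICAM1, SLA-DQA1 and SLA-DQB1) and 0 fell, beside 5.79% of all positions called higher. All 4 were lost on leaving out the border zone library of pig 1 or of pig 3 (adjusted p of 0.0644 to 0.159), and with pig as a block 10 genes were called.

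Markers of leukocytes and other cells differed between the zones as well. Counts of markers that rose in ischemic against healthy myocardium stand beside 18.5% of all positions called higher. The summed RPKM of 6 macrophage and monocyte markers was 21.7 to 24.2 in ischemic, 7.39 to 16.2 in border zone and 0.737 to 2.18 in healthy samples. CD163 was at 0 throughout, on an unplaced scaffold. All 4 tested, CD14, MSR1, LYZ and AIF1, were called higher in ischemic against healthy myocardium. MSR1, LYZ and AIF1 averaged 0.0938, 0.192 and 0.145 RPKM in healthy samples and reached the limit for testing only through the other zones. Their calls are therefore no support of their own. MRC1, at 0.382 RPKM in ischemic and 0.276 RPKM in healthy samples, was under that limit. The 4 neutrophil markers in the table summed to 14.1 to 30.2 RPKM in ischemic, 5.28 to 10.8 in border zone and 0.0813 to 0.323 in healthy samples, where S100A8, S100A9 and S100A12 were at 0. The 3 dendritic cell markers summed to 3.15 to 4.96, 2.85 to 4.27 and 0.444 to 0.778 RPKM in the same order. All 3 were called higher in ischemic against healthy myocardium. Each averaged under 0.5 RPKM in healthy samples, so each was tested only through the other zones. The 13 lymphocyte markers summed to 5.32 to 8.17 RPKM in ischemic, 3.74 to 9.89 in border zone and 1.74 to 3.69 in healthy samples. Of the 4 lymphocyte markers tested, 1 (CCR7) was called higher in ischemic against healthy myocardium. The 4 endothelial markers, of which 3 rose in ischemic against healthy myocardium, summed to 14.2 to 32.2 RPKM in ischemic, 8.18 to 18 in border zone and 6.58 to 8.84 in healthy samples. The 5 fibroblast markers, of which 3 rose, summed to 15.6 to 17.2, 11 to 13.7 and 6.53 to 9.64 RPKM in ischemic, border zone and healthy samples. The part of these cells in the levels of IRF1, DHX58 or IRF8 was not tested.

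Likeness of pattern was measured over the 9 libraries as the root mean square difference of log2(RPKM + 0.1) after centring each gene, against 1987 other genes. IRF1 was closest to TUBA1B (0.15) and C2H19orf66 (0.16), beside 0.76 to the median gene. IRF9 was closest to ZBP1 (0.16) and IL27RA (0.21), and DHX58 to CFL1 (0.31) and PLIN2 (0.32). DDX58 was closest to OAZ1 (0.21) and SRI (0.24), and IFIH1 to CABYR (0.18) and WTAP (0.21). TAP1 was closest to DDOST (0.21) and FKBP4 (0.22), PSMB8 to ETS1 (0.41) and DYNLL1 (0.43), and TRIM21 to PPP1R7 (0.29). GBP1 was closest to F8 (0.23) and TPM2 (0.24), and GBP2 to PAQR6 (0.19) and C5H12orf4 (0.22). None of the 10 genes was among the 2 closest of another. The 9 libraries share zones, pigs and depths, and the values describe these libraries.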

How the data were processed

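The authors deposited RPKM, 1 column per library, with exon length and annotated span, per the file headers. Reads were aligned to susScr3 with Bowtie, per the submitters' processing notes. The sources used here give neither the counter nor the strand setting nor the handling of duplicates. RPKM times span was a whole number of reads, within 0.01, for 100% of nonzero values, which gave totals and reads. In ischemic replicate 3, 53.2% of counts from 1 to 30 were multiples of 3, and in the other libraries 32.8% to 44.7%. Reads may therefore not be independent molecules.

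Symbols came from a Sscrofa11.1 RefSeq table (4793 of 4882 positions matched). Values were taken to log2(RPKM + 0.1), so fold changes of weakly transcribed genes are understated. Positions averaging 0.5 RPKM or more (2384) were fitted with limma 3.58.1 in R 4.3.3 on all 9 libraries, with trend and robust eBayes, 2-sided, Benjamini-Hochberg within each comparison at 0.05. Tables and plots used Python 3.11.15, pandas 2.3.3 and matplotlib 3.10.9.

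The 10 genes, the lists and the rule for names were chosen with earlier results of these data known. All 10 genes are named, with the 2 closest in pattern and the pathway genes called, except 1 close gene that is not reported here. Same-numbered libraries come from 1 pig per the labels. Their deviations correlated with r of -0.04 to 0.18, overlapping the -0.16 to 0.08 between libraries of different pigs. The pairing is thus hardly visible in the values. Pig as a block was an alternative. The others were the pseudocount, filter, scaling, limma-voom, position and leaving out each library.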

Additional observations from a re-analysis of the deposited data

How the results depend on the processing

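Precision was limited by depth, above all in the ischemic libraries, and by 3 pigs. Of positions tested, 659 were called in ischemic against healthy myocardium, 143 in border zone against healthy and 27 in ischemic against border zone. With pig as a replicate block these became 752, 205 and 29, and the pathway genes called were 25, 10 and 1, against 17, 4 and 1. TAP1 and SOCS1 in ischemic against healthy myocardium passed under that block. The fall of MAVS against the border zone did not, so the 1 pathway gene called there under the block, as lower, was another gene. For the 10 genes the block changed no other call.

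Of the 10 genes 2 were called in ischemic against healthy myocardium, 1 with no limit on low values, 1 with quantile normalization and 0 at a limit of 2 RPKM, where few of them are tested. Limma-voom called 1 in place of 0 in border zone against healthy. For pathway genes in ischemic against healthy, quantile normalization gave 11. For the border zone against healthy, a pseudocount of 1 RPKM gave 0, no limit 1, scaling to 1 median 1 and limma-voom 9. In ischemic against border zone the count was 0 with a pseudocount of 1, no limit, scaling to 1 median, quantile normalization and only the compared groups. Over all positions, a limit of 2 RPKM gave 346 in ischemic against healthy. The count for the border zone against healthy was 48 with a pseudocount of 1, 95 with no limit, 76 at a limit of 2 RPKM, 84 with scaling to 1 median, 85 with quantile normalization and 296 with limma-voom. In ischemic against border zone these gave 10 with a pseudocount of 1, 3 with no limit, 8 with scaling to 1 median, 5 with quantile normalization, 92 with limma-voom and 1 with only the compared groups. Apart from the limits, which change what is tested, the cause was not tested.

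Leaving out 1 library in turn gave 362 to 698 positions, 0 to 2 of the 10 genes and 6 to 21 pathway genes for ischemic against healthy myocardium. For the border zone against healthy it gave 36 to 174 positions, 0 of the 10 genes and 0 to 4 pathway genes, and for ischemic against the border zone 0 to 39, 0 and 0 to 1. Of 504 fold changes of named genes with 1 library left out, 396 kept direction and call, 86 lost the call, 1 gained it and 21 turned sign. Of 582 under the other alternatives these were 525, 39, 5 and 13.

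Values that turned sign were small except that of JAK2, at -3.76 in ischemic against healthy myocardium at the position with the highest mean. In that comparison PSMB7 was -0.08 with scaling to 1 median and -0.06 with quantile normalization, and PSMB6 was 0 with a pseudocount of 1 and 0.23 with limma-voom. In border zone against healthy, IRF9 was 0 and 0.03 in the same settings, TAP1 0.14 with limma-voom, and PSMB8 and TAP1 0.09 and 0.21 with the mean over both places. In ischemic against border zone, quantile normalization gave 0.21 for DDX58 and 0.17 for IFIH1, and limma-voom 0.07 for IFIH1. With 1 library left out, log2 fold changes in ischemic against healthy ran from -0.09 to 0.64 for IRF9, -0.29 to 0.17 for GBP1, -0.39 to 0.31 for GBP2 and -0.46 to 0.40 for PSMB6. For the border zone against healthy they ran from -0.36 to 0.27 for IRF9, -0.29 to 0.07 for GBP2, -0.64 to 0.26 for PSMB8, -0.34 to 0.31 for TAP1 and -0.51 to 0.27 for TRIM21. In ischemic against border zone they ran from -0.36 to 0.21 for IFIH1, -0.08 to 0.73 for IRF9 and -0.25 to 0.46 for GBP2. The cause was not tested.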
